A study of Homo sapiens with 12 samples.

Results

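Condensin and DNA topoisomerase II alpha are the main protein machines that fold and disentangle chromosomes for mitosis. The 9 genes described here are the 8 condensin subunit genes and TOP2A, chosen by symbol as the subunits of both human condensin complexes plus the topoisomerase that works beside them. They were found as 9 of 23617 gene symbols in the Granta-519 table and 9 of 23615 in the JeKo-1 table, each on 1 row. Granta-519 and JeKo-1 are human mantle cell lymphoma lines, grown from a cancer of B cells that as a rule carries a translocation joining CCND1, the gene of cyclin D1, to an immunoglobulin enhancer. In each line, cells infected with lentivirus carrying a control shRNA (shCtrl) were compared with cells carrying an shRNA against cyclin D1 (shCycD1). All 12 libraries came from puromycin-selected cells, with 3 libraries in each of the 4 groups, which the series design calls biological replicates. No genotype, clone, shRNA sequence or time after infection is given in the labels. The comparison asks how RNA of each gene differed after cyclin D1 silencing in each line, and whether condensin I, condensin II and the shared subunits differed alike.

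Condensin is a ring-shaped complex that extrudes loops of DNA and so compacts chromosomes into rod-shaped chromatids. SMC2 and SMC4 form the ATP-driven core of both complexes. Condensin I adds NCAPH, NCAPD2 and NCAPG and reaches chromosomes after the nuclear envelope breaks down, whereas condensin II adds NCAPH2, NCAPD3 and NCAPG2 and is nuclear through interphase. Topoisomerase II alpha passes one DNA duplex through another, which separates sister chromatids, and is the target of drugs such as doxorubicin and etoposide. Genes of mitosis often carry a cell cycle genes homology region (CHR) near their start, bound by the DREAM complex in resting cells and by MYBL2 and FOXM1 with the MuvB core in dividing cells. The CCAAT box, bound by NF-Y, often stands upstream of it.

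The promoters are shown as reference sequence. Whether their motifs bear on the changes given further on was not tested. RefSeq sequence (build GRCh38.p14) was available here for 11 start windows of 8 members, each 250 bases before to 50 after an annotated start, and NCAPH2 has none. The 250 bases before the start follow for TOP2A and for the condensin I genes, 5′ to 3′ on the gene's strand. Capitals mark a CHR (TTTGAA or TTCGAA) or a CCAAT box (CCAAT), each searched on both strands, so that they also appear as TTCAAA or ATTGG.
TOP2A, chr17:40417897-40418146, minus strand: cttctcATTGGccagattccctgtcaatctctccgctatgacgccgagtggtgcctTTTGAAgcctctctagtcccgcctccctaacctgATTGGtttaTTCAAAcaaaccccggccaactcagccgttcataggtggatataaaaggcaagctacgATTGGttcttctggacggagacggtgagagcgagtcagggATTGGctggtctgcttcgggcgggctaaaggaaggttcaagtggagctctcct
NCAPG, chr4:17810729-17810978, plus strand: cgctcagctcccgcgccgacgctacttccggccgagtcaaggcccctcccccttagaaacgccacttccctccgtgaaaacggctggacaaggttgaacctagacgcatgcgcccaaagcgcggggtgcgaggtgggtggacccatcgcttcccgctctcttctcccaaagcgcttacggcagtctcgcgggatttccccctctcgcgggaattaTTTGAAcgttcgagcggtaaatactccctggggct
NCAPD2, chr12:6493852-6494101, plus strand: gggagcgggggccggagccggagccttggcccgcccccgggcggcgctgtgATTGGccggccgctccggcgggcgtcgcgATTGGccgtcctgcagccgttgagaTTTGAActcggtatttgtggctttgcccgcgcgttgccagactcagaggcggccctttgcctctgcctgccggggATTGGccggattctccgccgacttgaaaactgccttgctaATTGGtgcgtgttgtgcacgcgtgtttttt
NCAPH, chr2:96335516-96335765, plus strand: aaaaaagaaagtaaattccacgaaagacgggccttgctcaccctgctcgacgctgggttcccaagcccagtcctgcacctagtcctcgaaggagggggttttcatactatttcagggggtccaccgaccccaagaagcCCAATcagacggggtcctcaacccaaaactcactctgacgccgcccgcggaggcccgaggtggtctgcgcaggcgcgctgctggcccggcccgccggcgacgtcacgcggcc

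For the other members only the CHR match is shown, with up to 12 bases on each side, so that the hexamers can be compared.
SMC4, chr3:160399563-160399592, plus strand: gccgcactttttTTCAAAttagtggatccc
SMC2, chr9:104094294-104094323, plus strand: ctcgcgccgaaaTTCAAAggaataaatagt
NCAPG2, chr7:158704755-158704781, minus strand: ccggcgggtgcgTTTGAAtctggtccg
NCAPD3, chr11:134223953-134223982, minus strand: gcgggagcgagcTTTGAAagttgagcacgg

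A CHR hexamer lay in the windows of 7 of the 8 members, the exception being NCAPH, and in 7 of the 11 windows. SMC4, SMC2 and NCAPD3 have 2 windows each and held it in 1 of them. Over all 35116 RefSeq windows of this length 16.4% held one, and over all 27305 genes 19.5% held one in at least 1 window. Its place varied, counting from the annotated start. In NCAPG it began at base -35, in SMC4 at -75, in NCAPD2 at -145 and in TOP2A at -194 and again at -151. In SMC2 and the second NCAPD3 window it spanned the start itself, and in NCAPG2 it began at base 36 after the start. The CCAAT box was found in 4 of the 8 members, against 39.7% of all genes: 4 times in TOP2A, 4 times in NCAPD2, 2 times in NCAPD3 and 1 time in NCAPH. An E2F motif (TTTGGCGC, TTTCGCGC, TTTCCCGC or TTTGCCGC, both strands) was found in NCAPD3 alone, against 3.99% of all genes. The motifs do not overlap one another in these windows. These matches describe the letters of the windows and not binding, which was not measured.

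**Figure D1:**
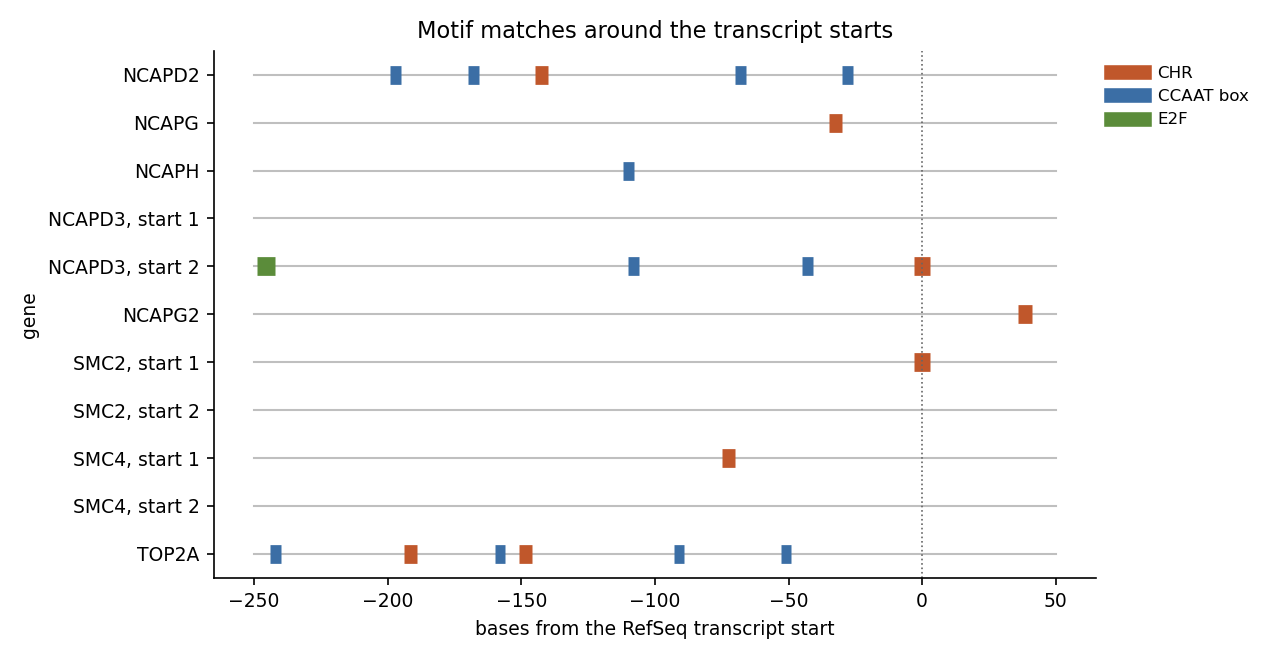
CHR, CCAAT box and E2F motif matches in the 11 RefSeq promoter windows of 8 members. The x axis is the distance in bases from the annotated start and each line is 1 window. The CCAAT boxes of TOP2A and NCAPD2 are spread along the window, NCAPH has no CHR, and the CHR of SMC2 and of the second NCAPD3 window lies across the start.

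All values below are RPKM (read counts scaled to gene length and library size), with the deposited values read as natural logs. For Granta-519 the values themselves point to that base, whereas for JeKo-1 no base stood out and the natural log is inferred from spike-ins, so that every JeKo-1 level, fold and log2 change depends on it. Depth per library is not given, and the Granta-519 and JeKo-1 tables were normalized separately, so levels are compared only within a table. CCND1, the targeted gene, had 924, 1043 and 874 RPKM in the Granta-519 shCtrl libraries and 213, 298 and 292 with shCycD1, a log2 change of -1.83 on the log2(RPKM + 0.5) scale used throughout. In JeKo-1 it had 395, 330.1 and 315 RPKM with shCtrl and 65.4, 64.8 and 67.4 with shCycD1, a log2 change of -2.38. Of 8 B-cell and mantle cell lymphoma markers other than CCND1, 7 passed the low-value filter in Granta-519 and 8 in JeKo-1. CD5 was the marker that did not pass in Granta-519, at 0.163 to 0.383 RPKM. Granta-519 values behaved as if divided by the genomic span with introns, so its levels are not comparable between genes. The filter there, the Granta-519 sums below and the share of any gene in a sum carry that limit. The summed RPKM of all 8 was 2390 to 2500 in shCtrl and 2180 to 2260 in shCycD1 libraries of Granta-519, and 917 to 1060 against 1290 to 1460 in JeKo-1. Behind the JeKo-1 sums the markers went both ways. There CD22 was at a log2 change of 1.83, CD79B at 0.67 and CD79A at 0.61, but SOX11 at -0.67 and CD5 at -0.48. Of 17 markers of T, NK, myeloid, epithelial, fibroblast and kidney cells, 4 and 3 passed. The sums over all 17 were 57.4 to 66.6 RPKM in shCtrl and 56.3 to 60.5 in shCycD1 libraries of Granta-519 and 6.78 to 7.75 and 7.09 to 8.12 in JeKo-1. Most of the Granta-519 sum was CSF1R, a myeloid marker, at 44.72, 50.68 and 44.95 RPKM in shCtrl and 43.94, 38.15 and 43.72 in shCycD1. Its log2 change was -0.16. COL1A1 (log2 change 0.48), ITGAM (0.39) and KRT18 (-0.0012) also passed there. LHX1 was listed at 0 in both lines, DCN in JeKo-1. Libraries of a group correlated across genes at 0.981 to 0.988 in Granta-519 and 0.968 to 0.974 in JeKo-1. In bulk RNA, fewer cells in mitosis and less RNA of these genes per cell cannot be told apart.

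All 9 genes fell after cyclin D1 silencing in both lines, except that with spike-in scaling only TOP2A and NCAPH were called lower in Granta-519. In each line every shCycD1 library lay below every shCtrl library for each of the 9. By limma, 9 of 9 were called lower at an adjusted p under 0.05 in Granta-519, where 18.2% of the 12668 genes tested were called lower, and 9 of 9 in JeKo-1, where 27.8% of 11866 were. Lower shCycD1 values without overlap were found for 24.2% of all Granta-519 genes tested and 30.5% of those of JeKo-1. The median log2 change of the 9 was -1.17 in Granta-519 and -2.68 in JeKo-1, beside 0.03 and 0.09 over all genes tested. All 9 passed the filter in both lines, being at 1 RPKM or more in every library.

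**Figure D2:**
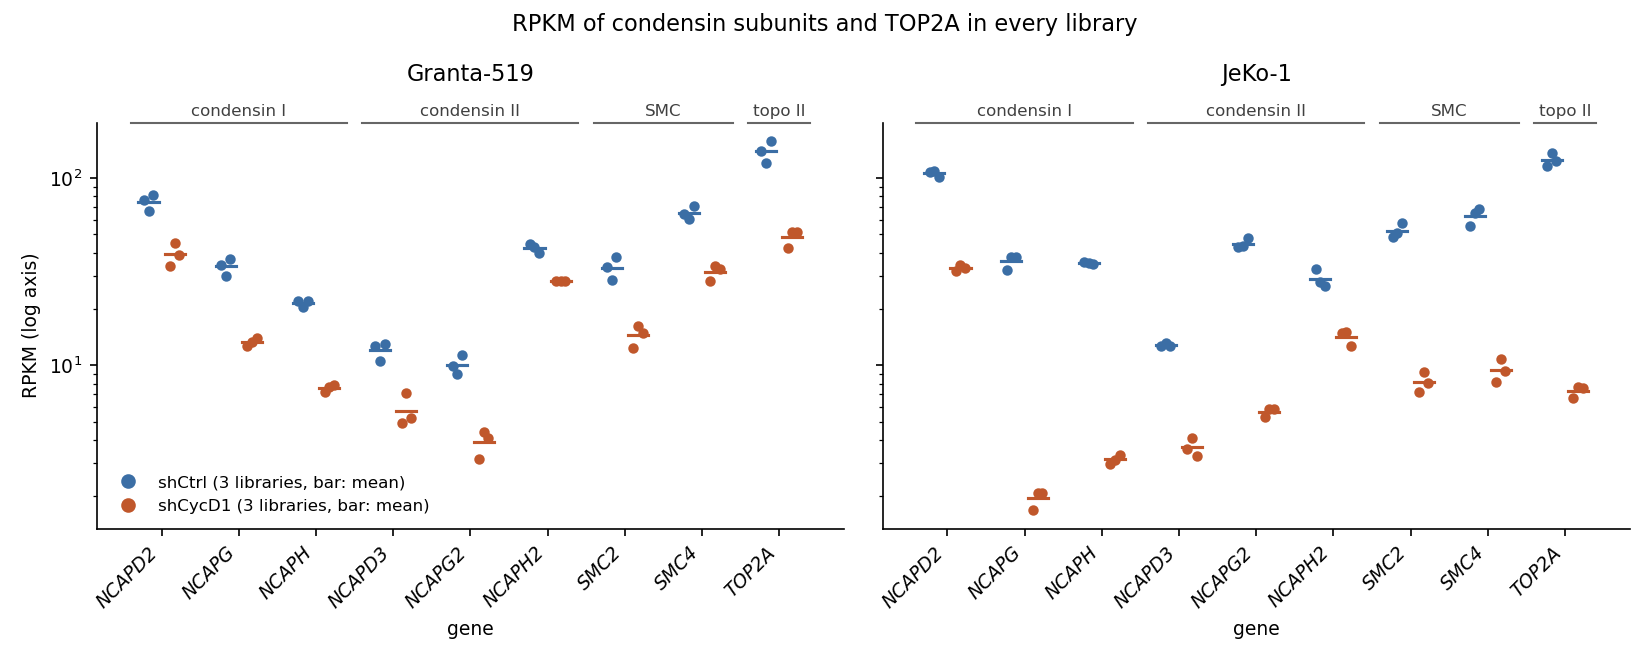
RPKM of the 9 genes in each library (log axis), with shCtrl and shCycD1 libraries as points, Granta-519 on the left and JeKo-1 on the right. In both panels no shCycD1 point reaches the lowest shCtrl point of the same gene, and the gap is widest for TOP2A, NCAPG and NCAPH in JeKo-1; the Granta-519 values are before spike-in scaling, with which NCAPH2 changes direction.

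TOP2A, which relaxes and decatenates DNA in dividing cells, had the largest log2 change of the 9 in each line, though by less than the combined SE over the next gene. NCAPH came first in Granta-519 without shCtrl 3 (-1.43 against -1.41 for TOP2A) or shCycD1 1 (-1.41 for both), and NCAPG in JeKo-1 at the pseudocount of 0.1 (-4.14 against -4.08) or with quantile normalization (-3.98 against -3.97). In Granta-519 its shCtrl libraries showed 139, 120.5 and 157 RPKM, and with shCycD1 it showed 42.1, 51.8 and 51.5. All 3 silenced libraries were thus far below the lowest control. The mean went from 139 ± 18.4 to 48.5 ± 5.53 RPKM (SD, n = 3), 2.86-fold lower, with a log2 change of -1.51 ± 0.13 (SE, adjusted p = 0.000301). In JeKo-1 the control libraries held 116, 137 and 123.5 RPKM and the silenced ones 6.72, 7.68 and 7.58. The silenced libraries were close to each other and the groups did not overlap. Here the mean went from 126 ± 10.4 to 7.33 ± 0.529 RPKM (SD, n = 3), 17.1-fold lower, and the log2 change was -4.01 ± 0.09 (SE, adjusted p = 5.94e-07). Read as log2, the JeKo-1 table gives 8.26-fold and a change of -2.87. Of the 11866 genes tested in JeKo-1, 6 fell by more, and of the 12668 in Granta-519, 65 did.

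Among the condensin I subunits, NCAPH is the kleisin, the flexible protein that closes the SMC ring. Its Granta-519 libraries read 22.04, 20.5 and 21.99 RPKM with shCtrl and 7.18, 7.64 and 7.88 with shCycD1. Both groups were tight, and they were separated by more than 12 RPKM. From 21.5 ± 0.865 to 7.57 ± 0.358 RPKM this was a 2.84-fold lower mean and a log2 change of -1.45 ± 0.08 (SE, adjusted p = 0.000148). In JeKo-1, NCAPH stood at 35.8, 35.3 and 34.9 RPKM in shCtrl and at 2.99, 3.15 and 3.33 in shCycD1. No silenced library reached 4 RPKM. The mean was 11.2-fold lower (35.3 ± 0.447 to 3.16 ± 0.169 RPKM), with a log2 change of -3.29 ± 0.08 (SE, adjusted p = 6.18e-07), or 6.57-fold and -2.41 with the table read as log2.

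NCAPG, a HEAT-repeat subunit that binds DNA together with the kleisin, was among the members that fell most in both lines. Granta-519 control libraries had 34.5, 30.1 and 37.1 RPKM and silenced libraries 12.7, 13.3 and 14.1. The groups did not overlap, and the silenced libraries differed among themselves by less than the controls did. Its mean went from 33.9 ± 3.55 to 13.4 ± 0.658 RPKM (2.53-fold lower), a log2 change of -1.31 ± 0.10 (SE, adjusted p = 0.000219). JeKo-1 controls had 32.2, 38.02 and 37.9 RPKM and silenced libraries 1.69, 2.09 and 2.08. These were the lowest levels of the 9 genes in the JeKo-1 table. The mean fell 18.4-fold, from 36.05 ± 3.33 to 1.95 ± 0.23 RPKM, and the log2 change was -3.90 ± 0.11 (SE, adjusted p = 8.64e-07), with 10 of all tested genes falling by more. As log2 the table gives 10.0-fold and -2.86. In the reference annotation 33.1% of the exon bases of NCAPG overlap LCORL on the other strand, and the strand setting of the counting is not given. LCORL itself was at -0.50 in Granta-519 and -1.49 in JeKo-1 (log2 change), and reads of the overlap cannot be told apart.

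NCAPD2, the other HEAT-repeat subunit of condensin I, had the smallest log2 change of condensin I in both lines. In Granta-519 it stood at 76.6, 66.8 and 80.7 RPKM in shCtrl and 33.9, 44.8 and 38.8 in shCycD1. The highest silenced library was still over 20 RPKM below the lowest control. On average it went from 74.7 ± 7.14 to 39.1 ± 5.49 RPKM (1.91-fold lower), a log2 change of -0.93 ± 0.12 (SE, adjusted p = 0.00147). In JeKo-1 the values were 108, 109 and 102 RPKM against 31.9, 34.5 and 32.9. Within each group they varied little. The mean was 3.21-fold lower (106 ± 3.85 to 33.1 ± 1.29 RPKM), a log2 change of -1.67 ± 0.07 (SE, adjusted p = 2.21e-06). MRPL51 overlaps 7.5% of its exon bases on the other strand. It had 1068 to 1290 RPKM in shCtrl and 893.6 to 1077 in shCycD1 libraries of Granta-519 (log2 change -0.23, adjusted p = 0.141) and 346.9 to 372.4 and 207.7 to 239.3 in JeKo-1 (-0.73, adjusted p = 0.00017), and its part in the NCAPD2 values was not tested.

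Of condensin II, NCAPH2 is the kleisin counterpart of NCAPH and had the smallest log2 change of all 9 genes in both lines. In Granta-519 it stood at 44.5, 42.99 and 40.02 RPKM in shCtrl and 28.2, 28.3 and 28.3 in shCycD1. The silenced libraries were nearly equal, and all were below the controls. The mean went from 42.5 ± 2.27 to 28.3 ± 0.0866 RPKM (1.5-fold lower), a log2 change of -0.58 ± 0.07 (SE, adjusted p = 0.00097), a direction that spike-in scaling turned to 0.18 (adjusted p = 0.574). In JeKo-1 the control libraries had 32.6, 27.9 and 26.5 RPKM and the silenced ones 14.97, 15.1 and 12.6. The groups again did not overlap. The mean fell 2.04-fold, from 29.01 ± 3.2 to 14.2 ± 1.4 RPKM, with a log2 change of -1.0 ± 0.11 (SE, adjusted p = 0.000213). Its transcript has the highest GC content of the 9 (62.2%, the others 37.3 to 52.5%), and with a correction for GC content its JeKo-1 change was -1.46 and that of NCAPD2 -1.84.

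NCAPG2, the condensin II counterpart of NCAPG, had the largest log2 change of condensin II. The Granta-519 libraries were at 9.95, 8.98 and 11.3 RPKM with shCtrl and 3.17, 4.42 and 4.12 with shCycD1. The highest silenced library was below the lowest control by more than 4 RPKM. Its mean went from 10.1 ± 1.19 to 3.9 ± 0.653 RPKM (2.59-fold lower), a log2 change of -1.27 ± 0.14 (SE, adjusted p = 0.000756). In JeKo-1 it had 42.9, 43.6 and 47.6 RPKM in control and 5.3, 5.87 and 5.84 in silenced libraries. The silenced libraries lay within 1 RPKM of each other. The mean was 7.88-fold lower (44.7 ± 2.55 to 5.67 ± 0.323 RPKM), a log2 change of -2.87 ± 0.08 (SE, adjusted p = 8.64e-07).

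NCAPD3, which loads with condensin II onto chromatin early in prophase, was the least abundant of the 9 in the JeKo-1 controls. In Granta-519 its libraries held 12.8, 10.6 and 12.96 RPKM with shCtrl and 4.91, 7.09 and 5.24 with shCycD1. The second silenced library was the highest of its group but below all controls. On average it went from 12.1 ± 1.32 to 5.75 ± 1.17 RPKM (2.11-fold lower), a log2 change of -1.02 ± 0.15 (SE, adjusted p = 0.00228). JeKo-1 values were 12.7, 13.2 and 12.7 RPKM against 3.57, 4.12 and 3.31. No silenced library was above 5 RPKM. The mean fell 3.52-fold, from 12.9 ± 0.287 to 3.67 ± 0.418 RPKM, a log2 change of -1.69 ± 0.10 (SE, adjusted p = 1.2e-05). JAM3, VPS26B and AP001775.2 together overlap 8.9% of its exon bases on the other strand.

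SMC2, an ATPase of the core shared by both complexes, stood in Granta-519 at 33.5, 28.6 and 37.7 RPKM in shCtrl and 12.3, 16.2 and 14.9 in shCycD1. The silenced libraries did not overlap the controls. The mean went from 33.3 ± 4.55 to 14.5 ± 1.97 RPKM (2.3-fold lower), a log2 change of -1.17 ± 0.14 (SE, adjusted p = 0.000928). In JeKo-1 the libraries held 48.7, 50.9 and 57.6 RPKM with shCtrl and 7.2, 9.18 and 8.07 with shCycD1. All silenced libraries were below 10 RPKM. The mean was 6.43-fold lower (52.4 ± 4.65 to 8.15 ± 0.995 RPKM), a log2 change of -2.62 ± 0.11 (SE, adjusted p = 2.6e-06).

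SMC4, the ATPase partner of SMC2, read 64.4, 60.1 and 70.8 RPKM in Granta-519 controls and 28.3, 33.8 and 32.6 in silenced libraries. The groups were separated by more than 20 RPKM. Its mean went from 65.1 ± 5.38 to 31.6 ± 2.88 RPKM (2.06-fold lower), a log2 change of -1.03 ± 0.10 (SE, adjusted p = 0.000442). In JeKo-1 the controls had 55.5, 65.02 and 68.3 RPKM and the silenced libraries 8.14, 10.9 and 9.37. The groups did not overlap. The mean fell 6.66-fold, from 62.9 ± 6.63 to 9.46 ± 1.36 RPKM, a log2 change of -2.68 ± 0.13 (SE, adjusted p = 4.34e-06). IFT80 and TRIM59 overlap 25.6% of its exon bases on the other strand, and TRIM59 was at -0.31 in Granta-519 and -1.25 in JeKo-1 (log2 change).

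The changes can be put in order within each line. In Granta-519 the order from the largest fall was TOP2A, NCAPH, NCAPG, NCAPG2, SMC2, SMC4, NCAPD3, NCAPD2 and NCAPH2. Neighbours in it differed by 0.01 to 0.14 log2 units, within the combined 95% error, except that NCAPD2 and NCAPH2 were 0.35 apart (combined SE 0.14). In JeKo-1 the order was TOP2A, NCAPG, NCAPH, NCAPG2, SMC4, SMC2, NCAPD3, NCAPD2 and NCAPH2. There it fell into steps. TOP2A and NCAPG did not differ beyond their error (gap 0.11, combined SE 0.14), while NCAPG and NCAPH were 0.60 apart and NCAPH and NCAPG2 0.42 apart. NCAPG2, SMC4 and SMC2 were each within error of the next, SMC2 was 0.93 from NCAPD3, NCAPD3 was 0.02 from NCAPD2, and NCAPD2 was 0.67 from NCAPH2. The combined SE treats the genes of a library as independent, which they are not. If the JeKo-1 values are taken as log2, all 9 stayed called there, with changes of -2.08 for NCAPG2, -1.92 for SMC4, -1.885 for SMC2, -1.25 for NCAPD3, -1.18 for NCAPD2 and -0.72 for NCAPH2 beside the 3 given above. The folds were then 4.82 for NCAPG2, 4.12 for SMC4, 4.06 for SMC2, 2.73 for NCAPD3, 2.33 for NCAPD2 and 1.71 for NCAPH2.

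**Figure D3:**
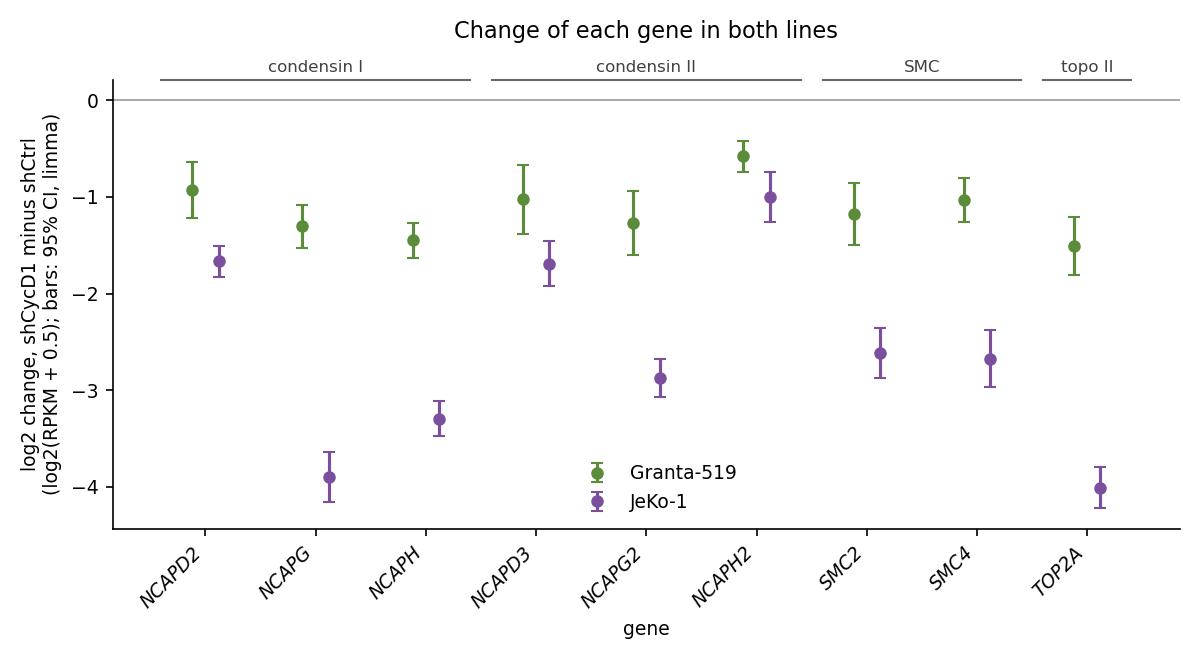
Log2 change of each gene (shCycD1 minus shCtrl, log2(RPKM + 0.5) scale) in Granta-519 and JeKo-1, as the limma estimate with its 95% confidence interval. Every interval lies below 0 and the JeKo-1 point lies below the Granta-519 point for each gene, from NCAPH2 (-0.58 and -1.0) to TOP2A (-1.51 and -4.01); with spike-in scaling NCAPH2 is at 0.18 in Granta-519.

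In the JeKo-1 table the order of levels was also different after silencing. RPKM is per length, though which gene length the authors used is not given. In shCtrl libraries the means ran from TOP2A (125.5 RPKM) and NCAPD2 (106) through SMC4 (62.9), SMC2 (52.4), NCAPG2 (44.7), NCAPG (36.05), NCAPH (35.3) and NCAPH2 (29.01) to NCAPD3 (12.9). Neighbours' libraries overlapped only for SMC4 and SMC2 and for NCAPG and NCAPH. In shCycD1 libraries NCAPD2 (33.1 RPKM) and NCAPH2 (14.2) came before SMC4 (9.46), SMC2 (8.15), TOP2A (7.33), NCAPG2 (5.67), NCAPD3 (3.67), NCAPH (3.16) and NCAPG (1.95). There SMC4 and SMC2, SMC2 and TOP2A, and NCAPD3 and NCAPH overlapped. TOP2A thus went from the highest of the 9 levels to the fifth, and NCAPG from the sixth to the lowest. For Granta-519 no such order is given, because its values behaved as if divided by the genomic span with introns.

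Averaged over 3 genes each, condensin I had a larger fall than condensin II in both lines. By the ratios within a library, this rested in Granta-519 on the pair of NCAPH and NCAPH2 alone. The mean log2 change was -1.23 for condensin I, -0.96 for condensin II and -1.10 for SMC2 and SMC4 in Granta-519, and -2.95, -1.85 and -2.65 in JeKo-1. Condensin I minus condensin II was -0.27 in Granta-519 (-0.29 to -0.23 with any 1 library left out) and -1.10 in JeKo-1 (-1.16 to -1.06). If the JeKo-1 table is in log2, whose base is not settled, the latter is -0.80, and with the GC correction it is -0.97. No p-value is given, since the genes were chosen with results of these data known. Ratios within a library do not depend on its scaling, and they show which counterparts make up this gap. Those of JeKo-1 do depend on the log base. Granta-519 values behaved as if divided by the genomic span, so there only the change of a ratio between groups is read. The levels of a ratio are not compared between the lines.

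The kleisins account for the largest part in JeKo-1. In Granta-519 theirs was the only counterpart ratio that went down. Its mean changed by -0.92, beside 0.04 for NCAPG to NCAPG2 and 0.15 for NCAPD2 to NCAPD3. In Granta-519 the log2 ratio of NCAPH to NCAPH2 was -1.01, -1.07 and -0.86 in the shCtrl libraries and -1.97, -1.89 and -1.84 in the shCycD1 libraries. Every silenced library was lower, by 1.89-fold on average (-0.98 ± 0.11 to -1.90 ± 0.07, SD, n = 3). In JeKo-1 it was 0.13, 0.34 and 0.40 with shCtrl and -2.32, -2.27 and -1.92 with shCycD1. The ratio turned from above to below 0 in all 3 libraries, 5.51-fold lower on average (0.29 ± 0.14 to -2.17 ± 0.22). With the GC correction the JeKo-1 change was -3.32 for NCAPH and -1.46 for NCAPH2, a smaller gap. With the table read as log2 the ratio was 3.86-fold lower.

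The NCAPG pair differed between the lines, a difference that was not tested. In Granta-519 the log2 ratio of NCAPG to NCAPG2 was 1.79, 1.74 and 1.71 in shCtrl and 2.01, 1.59 and 1.77 in shCycD1 libraries. These overlap, with means of 1.75 ± 0.04 and 1.79 ± 0.21. In JeKo-1 it was -0.41, -0.20 and -0.33 in shCtrl and -1.65, -1.49 and -1.49 in shCycD1 libraries, which do not overlap and lie 2.34-fold apart. The NCAPD pair went the other way by a small amount. Its log2 ratio went from 2.63 ± 0.04 to 2.78 ± 0.11 in Granta-519, without overlap, and from 3.04 ± 0.04 to 3.18 ± 0.13 in JeKo-1, with overlap. In JeKo-1 that direction turned with the GC correction, where NCAPD2 was at -1.84 and NCAPD3 at -1.74, and the NCAPD2 change minus that of NCAPD3 also turned at the pseudocount of 1 (-0.07) and without shCycD1 3 (-0.04).

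Taken over the 3 subunits of each complex, the log2 ratio of condensin I to condensin II in JeKo-1 was 0.93, 1.06 and 1.02 in shCtrl and -0.27, -0.23 and -0.03 in shCycD1 libraries. It was 2.27-fold lower on average, and all 3 silenced libraries were below 0. In Granta-519 the same ratio went from 1.13 ± 0.03 to 0.89 ± 0.09, without overlap. The ratio of condensin II to the SMC pair was higher in silenced JeKo-1 libraries, from -1.17 ± 0.16 to -0.39 ± 0.15, while the Granta-519 libraries overlapped (-1.43 ± 0.08 and -1.32 ± 0.05). In the fitted changes, condensin II minus the SMC pair was 0.79 in JeKo-1, 0.36 with the GC correction and 0.55 with the table read as log2. SMC2 and SMC4, whose proteins pair one to one, kept overlapping ratios in both lines, -0.97 ± 0.08 and -1.13 ± 0.07 in Granta-519 and -0.26 ± 0.08 and -0.21 ± 0.03 in JeKo-1. TOP2A had a larger change than the mean of the 8 condensin subunits. Its log2 ratio to them went from 2.22 ± 0.08 to 1.84 ± 0.06 in Granta-519 and from 1.63 ± 0.10 to 0.11 ± 0.06 in JeKo-1, without overlap in either line.

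**Figure D4:**
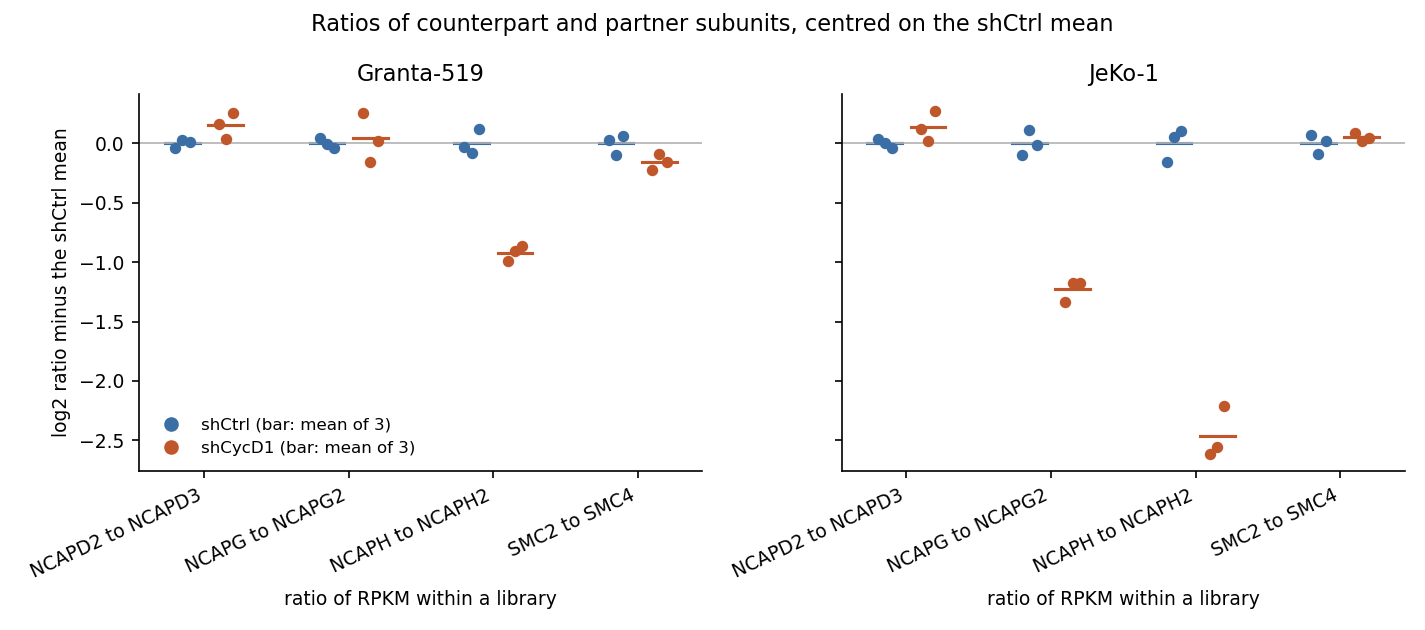
Within-library log2 ratio of each pair of counterpart subunits and of SMC2 to SMC4 (y axis, minus the mean of the shCtrl libraries of the line), 1 point per library and bars for the mean of 3. NCAPH to NCAPH2 drops in both lines in all silenced libraries, NCAPG to NCAPG2 only in JeKo-1, and SMC2 to SMC4 overlaps between the groups in both.

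Every member fell further in JeKo-1 than in Granta-519, by limma's test of the difference between the lines in a joint fit of the 12 libraries. Of the 10653 genes in that fit, 19.3% were called as falling further (or rising less) in JeKo-1, and 9 of 9 members were. The difference is the Granta-519 log2 change minus that of JeKo-1, each within its own table. It was 2.59 ± 0.15 (adjusted p = 5.19e-07) for NCAPG and 2.50 ± 0.16 (adjusted p = 8.81e-07) for TOP2A. It was 1.84 ± 0.10 (adjusted p = 5.04e-07) for NCAPH, 1.64 ± 0.17 (adjusted p = 2.14e-05) for SMC4, 1.60 ± 0.17 (adjusted p = 2.56e-05) for NCAPG2 and 1.44 ± 0.18 (adjusted p = 0.00011) for SMC2. It was smaller for NCAPD2, at 0.74 ± 0.14 (adjusted p = 0.00173), NCAPD3, at 0.67 ± 0.18 (adjusted p = 0.0127), and NCAPH2, at 0.42 ± 0.13 (adjusted p = 0.0225). With spike-in scaling all 9 differences were larger and still called, at 1.57 for NCAPD2, 1.44 for NCAPD3, 1.24 for NCAPH2 (adjusted p = 0.0216), 2.25 for SMC2, 2.37 for NCAPG2, 2.47 for SMC4, 2.64 for NCAPH, 3.33 for TOP2A and 3.40 for NCAPG. The JeKo-1 log2 change was 1.65 (NCAPD3) to 2.99 (NCAPG) times that of Granta-519. If the JeKo-1 values are log2 instead, the calls of NCAPD2 (0.25, adjusted p = 0.172), NCAPD3 (0.22, adjusted p = 0.347) and NCAPH2 (0.14, adjusted p = 0.317) are lost, and the other 6 remain, with 15.8% of all genes called in that direction. NCAPH2 also lost its call without Granta-519 shCtrl 3 (adjusted p = 0.0521) or JeKo-1 shCycD1 3 (adjusted p = 0.0523). The log2 change of CCND1 was -1.83 in Granta-519 and -2.38 in JeKo-1, the latter with the table read as a natural log. For CCND1 no value as log2 or with spike-in scaling and no test between the lines is given. Whether silencing was deeper in JeKo-1 is thus not settled, and its part in the difference was not tested.

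Spike-in scaling is the alternative that bears most on the Granta-519 values. Mean log2 levels of 49 ERCC spike-ins, synthetic RNAs added to each sample, stood at 0.13, 0.84 and 0.19 in the Granta-519 shCtrl libraries and at -0.47, -0.25 and -0.43 in the shCycD1 libraries, relative to the mean of the line. The second control was thus the highest, and every silenced library was below every control. Scaling by them moved the median log2 change of all genes from 0.03 to 0.74 in Granta-519 and from 0.09 to 0.03 in JeKo-1. In Granta-519 TOP2A (-0.74, adjusted p = 0.0182) and NCAPH (-0.71, adjusted p = 0.0388) were still called by limma, where 1.16% of all genes were called lower. NCAPG2 was at -0.56 (adjusted p = 0.0974), NCAPG at -0.55 (adjusted p = 0.0961), SMC2 at -0.42 (adjusted p = 0.202), NCAPD3 at -0.30 (adjusted p = 0.381), SMC4 at -0.27 (adjusted p = 0.398) and NCAPD2 at -0.16 (adjusted p = 0.611). Each of the 9 stayed below the shifted median of all genes. In JeKo-1 all 9 calls were kept, where 11.7% of genes were called lower.

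Genes that phosphorylate, recruit or oppose condensin, or coat the chromosome with it, formed a list of 26, all of them tested. In Granta-519 19 fell and 0 rose (median -1.06), and in JeKo-1 20 fell and 1 rose (median -2.01). Among all genes 18.2% fell and 22.4% rose in Granta-519, and 27.8% and 36.7% in JeKo-1. With spike-in scaling 3 fell and 4 rose in Granta-519 (median -0.29), where 1.16% of all genes were called lower and 60.8% higher. In JeKo-1 16 fell and 0 rose with that scaling (median -2.07), where 11.7% of all genes were called lower and 1707 of 11866 higher. CDK1, the kinase that starts mitosis and phosphorylates condensin, went from 99.1 ± 11 to 37.7 ± 2.41 RPKM in Granta-519 and from 109.7 ± 12.2 to 6.75 ± 1.21 in JeKo-1, log2 changes of -1.38 and -3.94 (adjusted p = 0.000209 and 1.55e-06). PLK1, a mitotic kinase, was at -1.50 and -3.67, and AURKB, the kinase of the chromosomal passenger complex, at -1.37 and -3.74. MKI67, which coats mitotic chromosomes, was at -1.45 and -3.80, with its Granta-519 controls spread over 176, 91.99 and 211 RPKM. The gene that rose in JeKo-1 was PPP2R1A, a scaffold subunit of phosphatase PP2A (0.41 ± 0.09 SE, adjusted p = 0.00571), and in Granta-519 it was at 0.04 (adjusted p = 0.638). With spike-in scaling it was the other way round, called in Granta-519 (0.81, adjusted p = 0.0099) and not in JeKo-1 (0.34, adjusted p = 0.518). With spike-in scaling the Granta-519 values of CDK1 (-0.61, adjusted p = 0.0526) and AURKB (-0.61, adjusted p = 0.0593) missed the threshold.

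The other SMC complexes, cohesin and SMC5/6 with their loaders and partners, had smaller median changes than condensin. Of 22 listed genes 20 were tested in Granta-519, where 10 fell and 1 rose (median -0.35), and 21 in JeKo-1, where 13 fell and 3 rose (median -0.43). Of all genes 18.2% fell and 22.4% rose in Granta-519, and 27.8% and 36.7% in JeKo-1. With spike-in scaling 2 fell and 8 rose in Granta-519 (median 0.36), beside 1.16% and 60.8% of all genes. In JeKo-1 8 fell and 1 rose with that scaling (median -0.49), where 11.7% of all genes were called lower and 1707 of 11866 higher. CDCA5, the cohesin protector sororin, and ESCO2, the acetyltransferase that establishes cohesion in S phase, were at -1.55 and -1.47 in Granta-519 and -3.23 and -3.19 in JeKo-1. SMC1A, an ATPase of cohesin, was at -0.88 and -1.23, and PDS5B, a cohesin regulator, at -0.44 (adjusted p = 0.0202 or 0.0576 with the replicate number as a block, the log2 change being 0.23 with spike-in scaling) and -1.40. REC8, the meiotic kleisin of cohesin, stood at 15.98, 17.9 and 15.8 RPKM in shCtrl and 9.8, 11.4 and 10.6 in shCycD1 libraries of Granta-519, and at 17.3, 14.6 and 16.2 and 31.04, 29.9 and 26.6 in JeKo-1. It was lower in Granta-519 (-0.62 ± 0.09 SE, adjusted p = 0.00219; 0.12 with spike-in scaling) and higher in JeKo-1 (0.84 ± 0.10 SE, adjusted p = 0.000256; 0.78 and adjusted p = 0.0628 with spike-in scaling). MAU2, a subunit of the cohesin loader, was at 0.29 (adjusted p = 0.116) in Granta-519 and 1.05 (adjusted p = 5.92e-05) in JeKo-1, the latter a rise. With spike-in scaling it was a rise in Granta-519 too (1.03, adjusted p = 0.00269), and the difference between the lines was at 0.0393 (adjusted p = 0.946). The PDS5B call in Granta-519 was also lost without shCtrl 1 or 3 or shCycD1 1 or 3 (adjusted p of 0.0577 to 0.079). NDNL2, a subunit of SMC5/6, rose by 0.34 and 0.40. Its Granta-519 call did not hold when shCtrl 1, shCtrl 3, shCycD1 2 or shCycD1 3 was left out (adjusted p of 0.0521 to 0.0819) or with the GC correction (0.30, adjusted p = 0.0516), and its JeKo-1 call with spike-in scaling (0.33, adjusted p = 0.503). With that scaling SMC1A was at -0.11 in Granta-519 (adjusted p = 0.732).

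Among 12 other topoisomerases and their partners, 5 fell and 1 rose in Granta-519 (median -0.21; 0 fell and 3 rose with spike-in scaling, median 0.51), and 8 fell and 2 rose in JeKo-1 (median -0.46). The shares of all genes that fell and rose were 18.2% and 22.4% in Granta-519 (1.16% and 60.8% with spike-in scaling) and 27.8% and 36.7% in JeKo-1. In JeKo-1 4 fell and 0 rose with that scaling (median -0.52), where 11.7% of all genes were called lower and 1707 of 11866 higher. TOP2B, the paralog of TOP2A that is also present in non-dividing cells, stood at 19.6, 19.5 and 22.3 RPKM in shCtrl and 17.4, 19.6 and 18.8 in shCycD1 libraries of Granta-519. These overlap (-0.13 ± 0.09 SE, adjusted p = 0.26). In JeKo-1 it had 91.4, 91.6 and 106 RPKM in shCtrl and 175, 186 and 201 in shCycD1 libraries. All 3 silenced libraries were higher, with a log2 change of 0.96 ± 0.09 (SE, adjusted p = 8.27e-05), or 0.90 (adjusted p = 0.0504) with spike-in scaling. With that scaling the TOP2B difference between the lines was -0.28 and not called (limma, adjusted p = 0.613). The log2 ratio of TOP2A to TOP2B in a library, which scaling does not touch, went from 0.38 ± 0.18 to -4.68 ± 0.07 in JeKo-1, 33.4-fold lower, or 13.3-fold with the table read as log2. In Granta-519 it went from 2.76 ± 0.11 to 1.38 ± 0.09, 2.6-fold lower. RMI1 and RMI2, partners of topoisomerase III alpha in dissolving crossed DNA strands, were at -1.13 and -1.08 in Granta-519 and -2.18 and -2.12 in JeKo-1. With spike-in scaling these Granta-519 values were -0.38 and -0.31 (adjusted p = 0.25 and 0.321). TOPBP1, a replication checkpoint protein, was at -1.02 (-0.27 and not called with spike-in scaling) and -1.73, and SPRTN, a protease for proteins trapped on DNA, at -0.71 (0.0084 with spike-in scaling) and -0.88. TOP3B was higher in JeKo-1 by 0.39 (adjusted p = 0.0444), a call lost under 9 alternatives, among them no low-value filter (adjusted p = 0.0775), spike-in scaling (adjusted p = 0.462), the GC correction (0.02, adjusted p = 0.908) and leaving out shCtrl 2 or 3 or shCycD1 1 or 2 (adjusted p of 0.102 to 0.14), and TOPORS rose by 0.33 in Granta-519 (adjusted p = 0.00858).

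The list of 22 factors known to act at CHR, CCAAT and E2F motifs held 12 genes that fell and 2 that rose in Granta-519 (median -0.46; 5 fell and 6 rose with spike-in scaling, median 0.30), and 13 that fell and 4 that rose in JeKo-1 (median -0.81). Of all genes 18.2% fell and 22.4% rose in Granta-519, 1.16% and 60.8% with spike-in scaling, and 27.8% and 36.7% in JeKo-1. In JeKo-1 12 fell and 2 rose with that scaling (median -0.87), where 11.7% of all genes were called lower and 1707 of 11866 higher. MYBL2 and FOXM1, activators of late cell cycle genes, were at -1.48 and -1.48 in Granta-519 and -2.82 and -3.38 in JeKo-1. MYBL2 went from 285 ± 33.5 to 39.7 ± 0.912 RPKM in JeKo-1, and FOXM1 from 49.1 ± 3.76 to 4.29 ± 0.5. E2F8 and E2F2, both E2F targets themselves, were at -1.57 and -1.47 in Granta-519 and -3.60 and -3.21 in JeKo-1. Genes of the DREAM complex and the MuvB core went both ways in JeKo-1. RBL1 (-2.48), LIN9 (-1.94), TFDP1 (-1.08), LIN54 (-0.84) and RBBP4 (-0.44, not called with spike-in scaling, adjusted p = 0.3) fell, while RBL2, E2F4, E2F5 and TFDP2 rose. RBL2, the pocket protein p130, went from 8.34, 9.04 and 10.3 to 15.5, 16 and 16.9 RPKM there (0.78 ± 0.10 SE, adjusted p = 0.000405), and in Granta-519 it was at 0.10 (adjusted p = 0.567; 0.82 and adjusted p = 0.0185, a rise, with spike-in scaling). E2F4 and E2F5, E2F proteins that bind p130, were at 0.71 and 0.93 in JeKo-1 and at 0.04 and -0.06 without passing the test in Granta-519. With spike-in scaling their Granta-519 values were 0.81 (adjusted p = 0.00566) and 0.67 (adjusted p = 0.0505), so that E2F4 was called higher there. TFDP2, an E2F dimer partner, rose in both lines (0.34 and 1.11), the Granta-519 call being lost without shCtrl 1 (adjusted p = 0.0605) or shCycD1 3 (adjusted p = 0.0579), and LIN37, of the MuvB core, rose in Granta-519 (0.50, adjusted p = 0.00657) and was at 0.47 (adjusted p = 0.0634) in JeKo-1. With spike-in scaling the JeKo-1 calls of E2F4 (0.64, adjusted p = 0.166) and RBL2 (0.72, adjusted p = 0.0806) were lost.

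**Figure D5:**
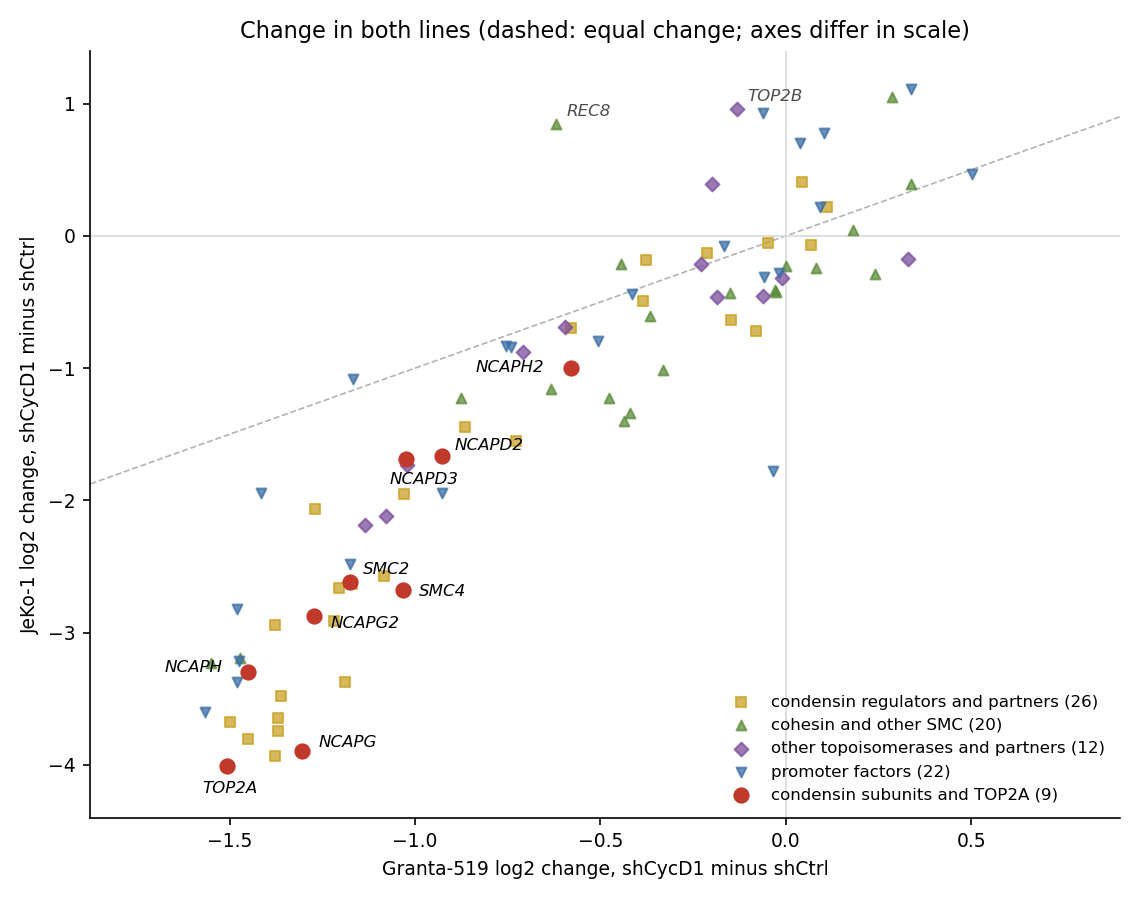
Log2 change (shCycD1 minus shCtrl) in Granta-519 (x axis) and JeKo-1 (y axis) for the 9 members and 4 lists of related genes, 1 point per gene tested in both lines. The dashed line marks equal change. All 9 members lie below it, TOP2A and NCAPG lowest, while TOP2B and REC8 lie above 0 in JeKo-1. With spike-in scaling the Granta-519 values shift upward. The list medians there are then -0.29 (regulators), 0.36 (cohesin and other SMC), 0.51 (topoisomerases) and 0.30 (promoter factors). NCAPH2 and REC8 are among the genes then above 0 in Granta-519.

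For each member the 3 genes with the most similar pair of log2 changes were taken from the 10652 other genes tested in both lines, by the distance between the pairs. No error is attached to these distances. The SE of a member's log2 change was 0.07 (NCAPD2 in JeKo-1) to 0.15 (NCAPD3 in Granta-519), so the order of near genes is not settled. A role is given for only some of them, mostly genes of cell division, so the roles printed do not describe the near genes as a set. No role is given for MYBPC2, AMOTL1, HSPE1, GMFB, MRPL39 or ACBD7, among others. TOP2A was nearest to CDK1 and FAM111B (both 0.149 log2 units away) and PBK (0.182), a kinase of mitotic cells. NCAPG was nearest to CDK1 (0.081), PBK (0.108) and RRM2 (0.109), a subunit of ribonucleotide reductase. NCAPH was nearest to NEK2 (0.024), a centrosomal kinase, KIF2C (0.034), a microtubule-depolymerising kinesin, and UHRF1 (0.037), which maintains DNA methylation. For NCAPG2 they were PHF19 (0.003), CLSPN (0.051) and ARHGAP11A (0.052). For SMC2 they were HSPE1 (0.015), SGOL1 (0.016), the protector of centromeric cohesion, and CENPM (0.033), and for SMC4 MTFR2 (0.037), CENPN (0.053) and CDC25C (0.057), the phosphatase that activates CDK1. NCAPD2 lay nearest to MYBPC2 (0.039), AMOTL1 (0.044) and KPNA2 (0.047), and NCAPD3 to TOPBP1 (0.04), GMFB (0.051) and CEP152 (0.051). NCAPH2, with its small changes, lay nearest to MRPL39 (0.012), ACBD7 (0.021) and ZW10 (0.027), a kinetochore protein.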

How the data were processed

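RNA of 12 libraries was measured, 3 in each group. Per the labels' protocols, RNeasy-purified total RNA went into stranded mRNA libraries (TruSeq). Sample titles gave groups and replicate numbers. For each line the authors deposited a single table, titled as RPKM, of 25368 (Granta-519) or 25370 rows (JeKo-1), 92 of them ERCC spike-ins. GRCh37, hg19, TopHat2 2.1.1, FastQC and limma 3.9 are named in the submitters' processing notes. Not given in the sources used here are the counter, annotation, strand setting and log. As deposited, the values were taken to be the natural log of RPKM + 1. In Granta-519, low values taken out of the natural log were whole multiples of a step per gene span in 74.5 to 80.4% of cases (tolerance 0.1; log2 50.6 to 60.4%). In JeKo-1 no base gave over 37.2%, so its base is inferred from spike-ins, whose spread there was 0.97 times that of Granta-519 (0.71 as log2).

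For 1 row per symbol (the highest mean), each line was fitted with limma (version 3.58.1, R 4.3.3, empirical Bayes, trend) on log2(RPKM + 0.5), for genes at 1 RPKM or more in at least 3 of 6 libraries, and jointly over 12 libraries for the difference between the lines. Fold changes on that scale understate those of low genes. Benjamini-Hochberg adjusted p under 0.05 over all genes tested was called. The fits were tested on simulated data with independent normal errors for each gene. Such data lack the relation between genes of a library, so no support for the calls is drawn from them. Members and lists were chosen with earlier results of these data known. Named are all members, from each list the 4 genes called in both lines with the largest average change and every gene called higher, and the 3 genes nearest each member. Gene models for overlaps and GC content were GENCODE (GRCh38). Alternatives were pseudocounts of 0.1 and 1, no filter, a mean of 5 RPKM or more, quantile normalization, spike-in scaling, a GC correction, JeKo-1 as log2, a replicate block and leaving out each library.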

Additional observations from a re-analysis of the deposited data

Results flagged for a closer look

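The test of the difference between the lines (limma, joint fit) passed for all 9 members and for other named genes, though not for all of them under the other settings given at the end. Values are the log2 change in Granta-519 minus that in JeKo-1. Of the members it was 0.74 for NCAPD2, 2.59 for NCAPG, 1.84 for NCAPH, 0.67 for NCAPD3, 1.60 for NCAPG2, 0.42 for NCAPH2, 1.44 for SMC2, 1.64 for SMC4 and 2.50 for TOP2A. Among the regulators and partners it was 2.37 for AURKB, 2.56 for CDK1, 2.35 for MKI67, 2.17 for PLK1 and -0.36 for PPP2R1A. Among cohesin genes it was 1.68 for CDCA5, 1.72 for ESCO2, 0.96 for PDS5B, -0.77 for MAU2 and -1.46 for REC8. Among topoisomerases and their partners it was -1.09 for TOP2B, -0.59 for TOP3B, 1.05 for RMI1, 1.04 for RMI2, 0.71 for TOPBP1 and 0.50 for TOPORS. Among the promoter factors it was 1.74 for E2F2, 2.03 for E2F8, 1.90 for FOXM1, 1.34 for MYBL2, -0.67 for E2F4, -0.99 for E2F5, -0.67 for RBL2 and -0.77 for TFDP2. With groups of 3, no library was tested as standing apart. These sizes rest on reading the JeKo-1 table as a natural log, and as log2 the calls of NCAPD2, NCAPD3, NCAPH2, PPP2R1A and TOPBP1 were lost (TOPBP1 0.22, adjusted p = 0.305). With spike-in scaling those of REC8 (-0.66, adjusted p = 0.207), TOP2B (-0.28, adjusted p = 0.613), E2F5 (-0.19, adjusted p = 0.725) and TFDP2 (-0.02, adjusted p = 0.967) were lost, and E2F4, MAU2, PPP2R1A, RBL2 and TOP3B turned direction without a call. With the GC correction PPP2R1A (-0.20, adjusted p = 0.127), TOP3B (-0.26, adjusted p = 0.169) and TOPORS (0.23, adjusted p = 0.266) were not called. These 3 also lost the call with some single libraries left out (adjusted p of 0.0516 to 0.0636), as did NCAPH2 without Granta-519 shCtrl 3 or JeKo-1 shCycD1 3.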

How the results depend on the processing

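With pseudocounts of 0.1 and 1, no filter, a mean of 5 RPKM or more, quantile normalization, the GC correction or any 1 library left out, all 9 members kept their calls in each line. With spike-in scaling 2 members were called lower in Granta-519 instead of 9, with NCAPH2 reversed to 0.18, and among other named genes MRPL39 (0.16), PDS5B (0.23), REC8 (0.12), SPRTN (0.0084) and ZW10 (0.13) reversed there. The difference between the lines reversed for E2F4 (0.17), MAU2 (0.0393), PPP2R1A (0.47), RBL2 (0.10) and TOP3B (0.19). Over all genes, spike-in scaling gave 7702 higher and 147 lower for Granta-519 (2840 and 2303 without it), 1707 and 1394 for JeKo-1 (4357 and 3303), and 3206 above 0 and 145 below 0 for the difference (2053 and 2410). The cause was not tested. With fewer genes tested at a mean of 5 RPKM or more, 2874 rose in JeKo-1 and 1487 differences lay below 0. Condensin I minus condensin II in JeKo-1 was -0.80 with the table read as log2 and -0.97 with the GC correction.

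With 1 library left out, all-gene counts ran from 1700 (without shCycD1 1) to 2712 higher and 1591 to 2439 lower for Granta-519. For JeKo-1 they ran from 3515 to 4215 and 2813 to 3072. Those of the difference ran from 1707 to 2018 above and 1991 to 2585 below 0, with 8 to 9 members called. Condensin I minus condensin II ran from -0.29 to -0.23 and from -1.16 to -1.06. Samples of the same replicate number did not deviate together in Granta-519 (r of 0.01, -0.12 and 0.03). In JeKo-1 they did so weakly (0.19, 0.09 and 0.10), each sample correlating best with its own number. The numbers were not taken as pairs in the fits used throughout, and whether they are pairs in JeKo-1 is not settled. The replicate block called 2285 genes higher and 1903 lower for Granta-519, 4901 and 3806 for JeKo-1, plus 2221 above and 2574 below 0 for the difference, and changed no member's call. Depth is unknown, and n = 3 per group limits the precision.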
